A study of Homo sapiens with 4 samples.

Results

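The kinetochore and spindle checkpoint genes described here are 42 genes chosen from a list of names, of 57820 gene rows in the count files, and the list was drawn up with earlier results of these data known. They encode the inner kinetochore (14 genes), the outer kinetochore (7), the spindle checkpoint (8), the chromosomal passenger complex (4), the spindle and late mitosis (7) and the control of anaphase (2). All 42 had an identifier in the files and enough counts to be tested. Total RNA came from SY5Y cells, a human neuroblastoma (NB) cell line that the labels give as MYCN wild type, 12 h after treatment with SGSS05-NS or with the solvent DMSO. The labels name the compound SGSS05-NS at 3 µM, and the study describes it, as SGSS05-NS3, as a covalent inhibitor of the methyltransferase SETD8. A figure legend of the study gives the dose of the labels for these SY5Y data, and its methods give a lower one. Each condition had 2 libraries, described by the study as independent biological replicates, and every library came from the same line. Between 21463105 and 25350204 fragments fell on genes per library. Fragments that overlapped no annotated exon on the counted strand made up between 12.3% and 12.4% of all fragments, mapped or not, in the DMSO libraries. In the SGSS05-NS libraries this share was between 15.3% and 16.1%.

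During mitosis each chromosome is held at its centromere, which is marked by the histone H3 variant CENP-A. A network of CENP proteins on this chromatin, the inner kinetochore, carries the outer kinetochore, whose NDC80 complex grips the microtubules. While any kinetochore is unattached, the spindle checkpoint blocks the CDC20-activated anaphase-promoting complex, and the chromosomal passenger complex with its kinase Aurora B releases faulty attachments. Many of these genes are transcribed mainly in G2 and mitosis. The DREAM complex, which acts downstream of p53 and p21, is known to repress such genes through a promoter element called CHR.

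Most of these genes were lower in SGSS05-NS than in DMSO libraries. The largest fall left 45.8% of the DMSO level, in CENPP, a gene of 295 kb. Of the fragments counted at its position, 53.9% lay on the opposite strand and were not part of this level. DLGAP5 followed at 46.8%. At an adjusted p-value under 0.001, the study's threshold, from edgeR's quasi-likelihood test, 17 of the 42 genes were lower, against 8.14% of the 16468 genes tested. None was higher at this threshold, with edgeR or with DESeq2, against 6.37% of all genes. At an adjusted p-value under 0.05, 31 were lower and 2 were higher, against 23.7% and 22.6% of all genes, and at an unadjusted p under 0.05 the counts were 32 and 2. Of the 31, 22 passed 0.05 without DMSO replicate 1, where ANLN, BIRC5, BUB1, BUB3, CDC20, CENPC, NDC80, TTK and ZWINT did not, and 25 without SGSS05-NS replicate 2, where ANLN, BUB1, CDC20, CENPC, TPX2 and ZWINT did not. The median log2 fold change was -0.42 for the 42 genes and 0.01 for all genes tested. Levels are given as CPM, counts scaled to a common library size with TMM normalization, and SE stands for standard error. On this scale both SGSS05-NS libraries were below both DMSO libraries for 35 of the genes and above them for 3, against 36.9% and 37.8% of all genes. Fewer mitotic cells and less RNA per mitotic cell cannot be told apart in bulk RNA.

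**Figure D1:**
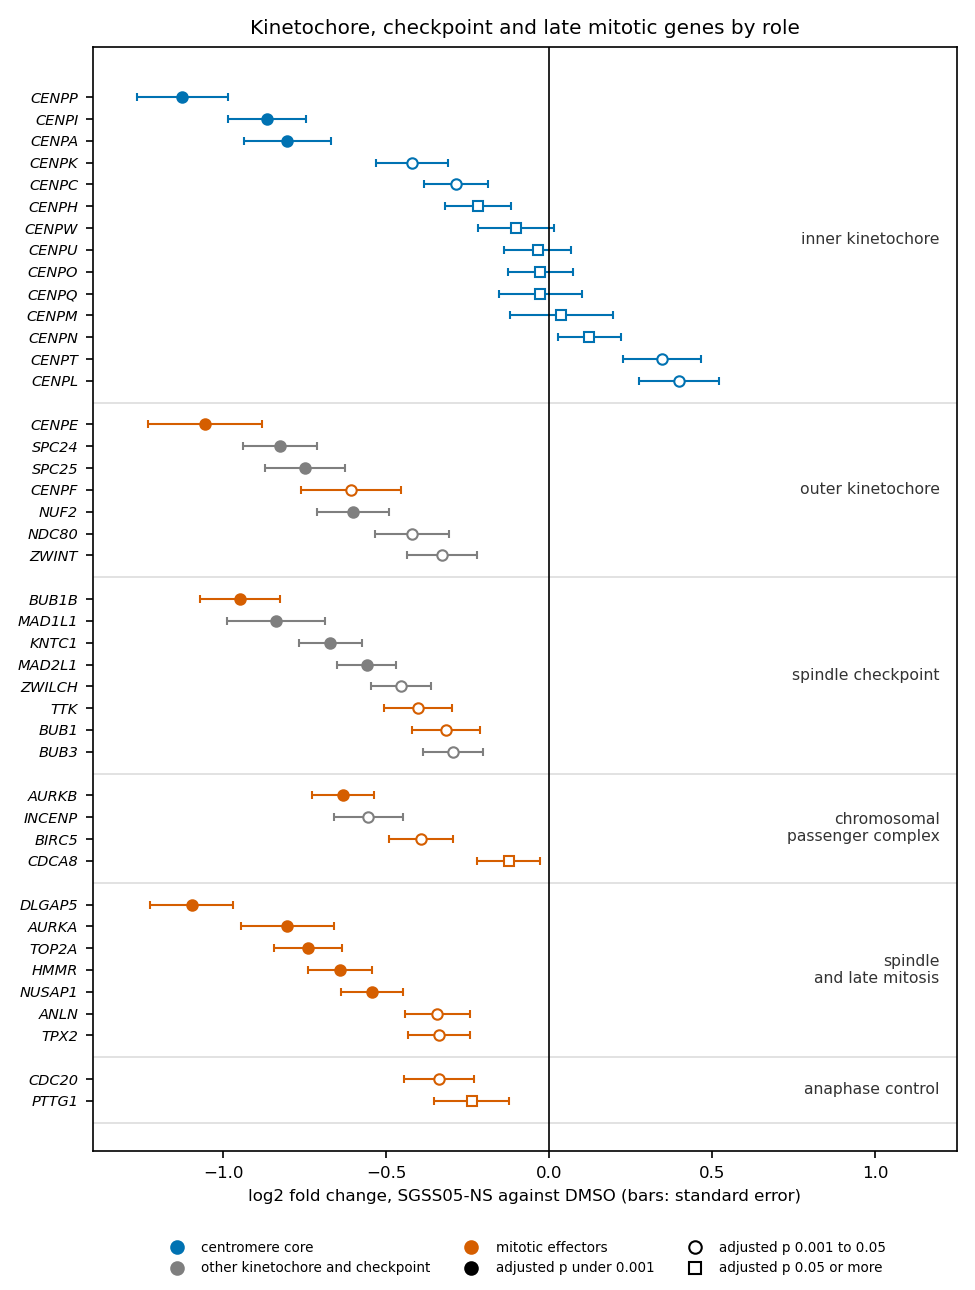
Log2 fold change of each of the 42 genes between SGSS05-NS and DMSO (x axis), with its standard error, grouped by role and colored by class. Filled symbols passed an adjusted p of 0.001, open circles 0.05 only and open squares neither, and the 4 genes right of 0 were all in the inner kinetochore.

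The promoters of these genes are shown because many mitotic genes are known to carry a CHR element. RefSeq promoter windows on GRCh38.p14, from 250 bases before to 50 bases after the start site, were matched by symbol for 33 of the 42 genes. There was no entry for CENPH, CENPL, CENPM, BUB3, TTK, KNTC1, BIRC5, AURKA and TPX2. The letters searched, on both strands, were TTTGAA for CHR, TTTAAA for a CHR variant, CCAAT for the CCAAT box bound by NF-Y, and TTTCCCGC or TTTGGCGC for an E2F site, and matches of different motifs were counted separately where they overlapped. The windows of 5 genes are shown: DLGAP5, BUB1B and TOP2A as late mitotic and checkpoint genes with large falls, CENPA as an inner kinetochore gene that fell and CENPT as one that was higher at 0.05. They are examples and do not stand for all 33 genes. CENPP (log2 fold change -1.13) and CENPE (-1.06) fell by more than BUB1B and TOP2A and held no CHR letters. CENPE held the variant, and CENPN (0.12) held CHR letters. Capitals mark the CHR, CHR variant and CCAAT letters on either strand, and each window is written 5′ to 3′ on the strand of the gene.
DLGAP5, chr14:55191536-55191835, minus strand: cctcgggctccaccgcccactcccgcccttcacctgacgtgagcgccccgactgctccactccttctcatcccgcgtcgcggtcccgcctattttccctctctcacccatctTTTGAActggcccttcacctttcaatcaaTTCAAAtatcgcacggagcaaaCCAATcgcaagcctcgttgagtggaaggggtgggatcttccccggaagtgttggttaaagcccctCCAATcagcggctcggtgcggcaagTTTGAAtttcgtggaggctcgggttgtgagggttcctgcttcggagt
BUB1B, chr15:40160819-40161118, plus strand: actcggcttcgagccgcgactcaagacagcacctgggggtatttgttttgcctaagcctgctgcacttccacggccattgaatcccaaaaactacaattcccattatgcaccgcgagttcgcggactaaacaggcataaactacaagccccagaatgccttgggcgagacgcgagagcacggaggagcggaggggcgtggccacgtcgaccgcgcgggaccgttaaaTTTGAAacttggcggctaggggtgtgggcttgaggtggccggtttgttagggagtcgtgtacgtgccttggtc
TOP2A, chr17:40417847-40418146, minus strand: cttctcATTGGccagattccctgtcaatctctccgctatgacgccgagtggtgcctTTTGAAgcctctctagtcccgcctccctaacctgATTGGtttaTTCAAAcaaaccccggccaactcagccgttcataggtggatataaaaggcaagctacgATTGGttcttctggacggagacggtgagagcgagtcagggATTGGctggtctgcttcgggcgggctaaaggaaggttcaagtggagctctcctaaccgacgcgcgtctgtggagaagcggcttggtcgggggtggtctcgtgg
CENPA, chr2:26785806-26786105, plus strand: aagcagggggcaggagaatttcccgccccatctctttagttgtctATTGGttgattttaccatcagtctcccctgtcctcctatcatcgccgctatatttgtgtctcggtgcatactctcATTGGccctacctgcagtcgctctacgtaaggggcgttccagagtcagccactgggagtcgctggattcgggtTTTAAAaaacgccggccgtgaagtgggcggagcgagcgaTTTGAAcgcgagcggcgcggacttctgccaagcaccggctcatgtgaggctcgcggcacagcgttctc
CENPT, chr16:67847644-67847943, minus strand: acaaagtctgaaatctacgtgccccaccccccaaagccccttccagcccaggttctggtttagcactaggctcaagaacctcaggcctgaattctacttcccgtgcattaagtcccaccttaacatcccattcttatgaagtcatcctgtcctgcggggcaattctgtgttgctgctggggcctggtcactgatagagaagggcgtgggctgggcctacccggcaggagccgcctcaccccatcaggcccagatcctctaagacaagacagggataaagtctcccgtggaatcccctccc

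In the DLGAP5 window, CHR letters began 138 and 109 bases before the start site and at base 4 after it. BUB1B held 1 CHR match, 23 bases before the start, and no CCAAT. TOP2A held CHR matches 194 and 151 bases before the start and 4 CCAAT matches. CENPA had a CHR match 18 bases before the start, with a CHR variant 57 bases before it. In the CENPT window there was no match to any of these letters.

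Of the 14 inner kinetochore genes, 3 were lower at an adjusted p under 0.001 (8.14% of all genes), with a median log2 fold change of -0.07. At 0.05, 5 were lower and 2 higher, against 23.7% and 22.6% of all genes, and 7 passed in neither direction. CENPI, a component of the CENP-H/I/K part of the network (chromosome X of GRCh37 from 100353177 to 100421115), had 36.7 and 31.4 CPM in the DMSO libraries and 19.5 and 17.9 CPM in the SGSS05-NS libraries. The groups did not overlap, and the log2 fold change was -0.87 (SE 0.12, adjusted p = 0.00014). CENPP (chromosome 9 from 95088235 to 95382811), another member of the network, had 20.6 and 25.1 CPM with DMSO and 9.96 and 10.9 CPM with SGSS05-NS. It showed the largest fall of all 42 genes, a log2 fold change of -1.13 (SE 0.14, adjusted p = 6.2e-05). CENPP is also among the genes with fragments on both strands, since 53.9% of the fragments counted at it lay on the opposite strand. On that strand there were 18.4 and 15.2 CPM with DMSO and 23.1 and 22.0 CPM with SGSS05-NS. Without regard to strand, which includes those fragments, the log2 fold change was -0.67 (adjusted p = 0.0021). CENPA, the centromeric histone itself, had 49.6 and 43.1 CPM with DMSO and 30.2 and 23.0 CPM with SGSS05-NS. It fell to 57.3% of its DMSO level, where the group means were 46.4 ± 4.61 and 26.6 ± 5.14 CPM (SD, n = 2, adjusted p = 0.0005). CENPK (log2 fold change -0.42) and CENPC (-0.29), which joins the network to CENP-A chromatin, passed 0.05 only, and CENPC in none of the 4 fits that left out a library nor with DESeq2.

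In the same network, 10 of the 14 genes had a log2 fold change below 0, against 8064 of all 16468 genes tested, and 4 were above 0. Of the 14 genes, 2 were higher at 0.05, CENPL and CENPT, against 22.6% of all genes. CENPL, which pairs with CENP-N to bind CENP-A nucleosomes, had 35.71 and 28.04 CPM with DMSO and 43.5 and 40.6 CPM with SGSS05-NS, a log2 fold change of 0.40 (SE 0.12, adjusted p = 0.019). CENPT, which links the inner kinetochore to the NDC80 complex, had 21.8 and 20.7 CPM with DMSO and 24.8 and 29.2 CPM with SGSS05-NS, a log2 fold change of 0.35 (SE 0.12, adjusted p = 0.033). Neither group pair overlapped, but both calls were fragile. CENPL did not pass 0.05 with DESeq2 (adjusted p = 0.055) or without DMSO replicate 2, where its log2 fold change was 0.22 (adjusted p = 0.27). CENPT did not pass with DESeq2, without a filter on low counts, without regard to strand (adjusted p = 0.12) or without DMSO replicate 1, DMSO replicate 2 or SGSS05-NS replicate 2 (log2 fold changes of 0.38, 0.29 and 0.22). Of the fragments at CENPT, 49.8% lay on the opposite strand.

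The other inner kinetochore genes did not pass 0.05. CENPN, with 41.7 and 40.1 CPM in DMSO and 44.3 and 44.7 CPM in SGSS05-NS libraries, had a log2 fold change of 0.12 (SE 0.10, adjusted p = 0.32). CENPM had 14.1 and 10.6 CPM with DMSO and 12.2 and 13.2 CPM with SGSS05-NS, so the groups overlapped (log2 fold change 0.04, SE 0.16). The groups overlapped as well for CENPQ, with 22.1 and 18.5 CPM against 19.5 and 20.4 CPM (log2 fold change -0.03, SE 0.13), and for CENPO and CENPU (-0.03 and -0.04). CENPH (-0.22, adjusted p = 0.092) and CENPW (-0.10, adjusted p = 0.50), the histone-fold partner of CENP-T, were below DMSO in both SGSS05-NS libraries without passing the test.

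All 7 outer kinetochore genes were lower at an adjusted p under 0.05 (23.7% of all genes), and 4 at 0.001 (8.14%), with a median log2 fold change of -0.61. SPC24, a subunit of the NDC80 complex (chromosome 19 from 11242196 to 11266483), had 81.1 and 71.6 CPM with DMSO and 47.2 and 39.0 CPM with SGSS05-NS, a log2 fold change of -0.83 (SE 0.11, adjusted p = 0.00013). Its partner SPC25 had 20.0 and 20.4 CPM with DMSO and 12.0 CPM in each SGSS05-NS library, a log2 fold change of -0.75 (SE 0.12, adjusted p = 0.00045). SPC24 and SPC25 anchor the complex to the inner kinetochore, and both were well below DMSO. NUF2 (-0.60, adjusted p = 0.00093) and NDC80 (-0.42, adjusted p = 0.01), the subunits that touch the microtubule, were lower at 0.001 and at 0.05. NUF2 did not pass 0.001 without DMSO replicate 1 (log2 fold change -0.51) or without SGSS05-NS replicate 2 (-0.49), and differences between these genes were not tested.

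CENPE, the kinesin of the kinetochore corona that carries chromosomes to the spindle equator (chromosome 4 from 104026506 to 104119602), had 104 and 97.8 CPM with DMSO and 60.9 and 36.4 CPM with SGSS05-NS. The 2 treated libraries stood apart from each other as well as from DMSO, and the log2 fold change was -1.06 (SE 0.18, adjusted p = 0.00049). It was -0.73 without SGSS05-NS replicate 2 and -1.48 without SGSS05-NS replicate 1, and passed 0.001 in both of these fits, but not with DESeq2 (adjusted p = 0.013). CENPF, a large protein of the same corona, had 889 and 858 CPM with DMSO and 690 and 456 CPM with SGSS05-NS, a log2 fold change of -0.61 that passed 0.05 only (SE 0.15, adjusted p = 0.0065). It did not pass with DESeq2 (adjusted p = 0.087). Without SGSS05-NS replicate 1 it was -0.94 and passed 0.001, and without SGSS05-NS replicate 2 it was -0.34. ZWINT, which binds the outer kinetochore and recruits the RZZ complex, had the least certain change of this group, with 85.2 and 78.4 CPM against 70.8 and 59.4 CPM (log2 fold change -0.33, SE 0.11, adjusted p = 0.024).

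All 8 spindle checkpoint genes were lower at an adjusted p under 0.05 (23.7% of all genes), and 4 at 0.001 (8.14%), with a median log2 fold change of -0.51. BUB1B, which encodes the checkpoint protein BubR1 (chromosome 15 from 40453224 to 40513324), had 145 and 142 CPM with DMSO and 84.6 and 63.7 CPM with SGSS05-NS, a log2 fold change of -0.95 (SE 0.12, adjusted p = 8.4e-05). KNTC1, the ROD subunit of the RZZ complex that brings MAD1 and dynein to kinetochores (chromosome 12), had 172 and 157 CPM with DMSO and 99.4 and 108 CPM with SGSS05-NS, a log2 fold change of -0.67 (SE 0.10, adjusted p = 0.00018). For both genes the treated libraries lay far below the DMSO libraries relative to the gap between replicates. MAD2L1, the MAD2 protein that sequesters CDC20, had a log2 fold change of -0.56 (adjusted p = 0.00042). MAD1L1, its binding partner at the kinetochore, had one of -0.84 (adjusted p = 0.00085), with 21.8 and 32.4 CPM in the treated libraries.

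The remaining checkpoint genes passed 0.05 only, although ZWILCH and TTK passed 0.001 in at least 1 alternative. ZWILCH, a further RZZ subunit, had a log2 fold change of -0.46, the kinase gene TTK (MPS1), which starts checkpoint signaling, one of -0.40, and BUB3, the small partner of BUB1 and BubR1, one of -0.30. BUB1, the kinase that docks BubR1 at kinetochores, had 123 and 112 CPM with DMSO and 102 and 86.8 CPM with SGSS05-NS (log2 fold change -0.32, SE 0.10, adjusted p = 0.025). Of the BUB1 and BUB1B pair, BUB1B had the lower share of its DMSO level, 51.8% against 80.2%, with no test between the genes.

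Of the chromosomal passenger complex, 3 of 4 genes were lower at an adjusted p under 0.05 (23.7% of all genes), and AURKB alone at 0.001 (8.14%). AURKB, the Aurora B kinase (chromosome 17), had 60.6 and 58.0 CPM with DMSO and 39.2 and 37.3 CPM with SGSS05-NS, a log2 fold change of -0.63 (SE 0.10, adjusted p = 0.00026). INCENP, the scaffold that activates Aurora B, had 134 and 142 CPM with DMSO and 103 and 85.5 CPM with SGSS05-NS (log2 fold change -0.55, SE 0.11, adjusted p = 0.0013). INCENP passed 0.001 in 3 of the 4 fits that left out a library and not without SGSS05-NS replicate 2 (log2 fold change -0.43). BIRC5 (survivin) had a log2 fold change of -0.39 (adjusted p = 0.0065). CDCA8 (borealin), which forms the targeting part of the complex with survivin, had 75.6 and 73.1 CPM with DMSO and 72.1 and 64.3 CPM with SGSS05-NS, and did not pass (log2 fold change -0.12, SE 0.10, adjusted p = 0.32).

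All 7 spindle and late mitotic genes were lower at an adjusted p under 0.05 (23.7% of all genes), and 5 at 0.001 (8.14%), with a median log2 fold change of -0.64. DLGAP5 (HURP), which stabilizes microtubules near chromosomes (chromosome 14), had 127 and 116 CPM with DMSO and 65.2 and 48.8 CPM with SGSS05-NS, a log2 fold change of -1.10 (SE 0.13, adjusted p = 3.7e-05). It had the smallest adjusted p of the 42 genes. TOP2A, the topoisomerase that untangles sister chromatids (chromosome 17), had 885 and 843 CPM with DMSO and 558 and 476 CPM with SGSS05-NS, a log2 fold change of -0.74 (SE 0.10, adjusted p = 0.00015). In both genes the treated libraries were well below the DMSO libraries. AURKA, the Aurora A kinase of the spindle poles, fell to 57.3% of its DMSO level, while TPX2, its activator, was at 79.1% (adjusted p = 0.012). HMMR (log2 fold change -0.64) and NUSAP1 (-0.54), which bind spindle microtubules, were lower at 0.001, but NUSAP1 not without DMSO replicate 1 (-0.52) or without SGSS05-NS replicate 2 (-0.48). ANLN, the anillin of the cleavage furrow, had 149 and 142 CPM against 123 and 106 CPM (log2 fold change -0.34, SE 0.10, adjusted p = 0.015).

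Of the 2 genes that control anaphase, 1 was lower at an adjusted p under 0.05 (23.7% of all genes). CDC20, the activator of the anaphase-promoting complex and the target of the checkpoint, had 113 and 109 CPM with DMSO and 96.6 and 79.4 CPM with SGSS05-NS, a log2 fold change of -0.34 (SE 0.11, adjusted p = 0.022). It did not pass 0.05 without DMSO replicate 1 or without SGSS05-NS replicate 2 (log2 fold change -0.20 in the latter). PTTG1 (securin), which holds separase inactive until anaphase, had 110 and 97.7 CPM with DMSO and 97.6 and 78.3 CPM with SGSS05-NS. One DMSO library and one treated library were almost level, and the gene did not pass (log2 fold change -0.24, SE 0.12, adjusted p = 0.11).

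**Figure D2:**
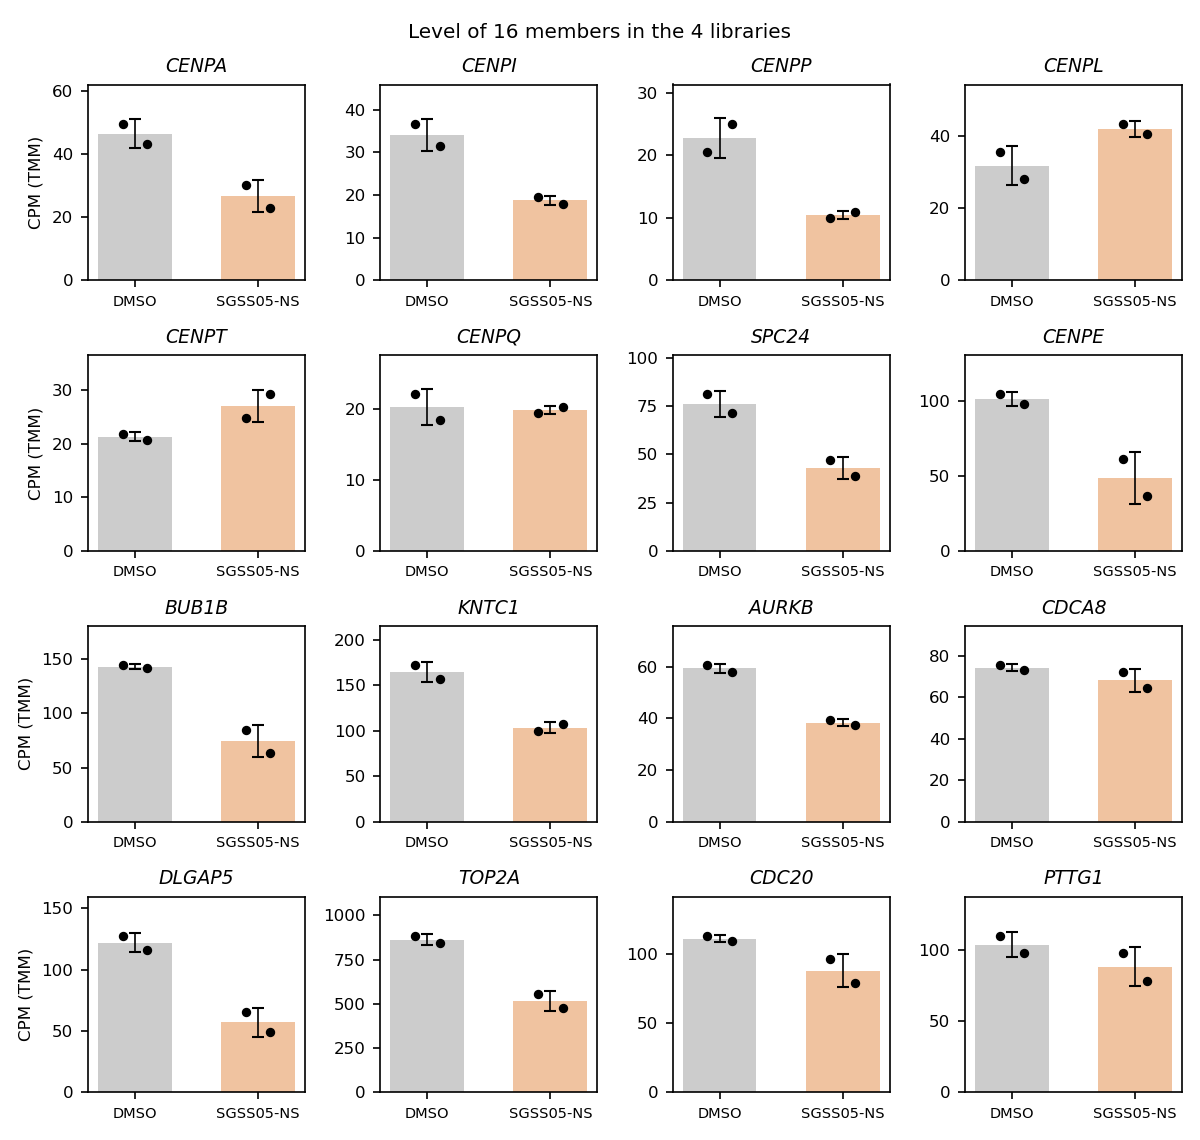
TMM-normalized CPM of 16 of the genes (y axis, from 0), with points for the libraries, bars for the group means and error bars for the SD (n = 2). With SGSS05-NS, DLGAP5, CENPE and BUB1B stand at 46.8%, 48.1% and 51.8% of their DMSO means, both libraries of CENPL and CENPT are above DMSO, and the groups overlap for CENPQ.

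The centromere core was set beside the mitotic effectors, genes of the kind that DREAM is known to repress. The core was taken as the 14 inner kinetochore genes. The effectors were 17 genes: CENPE, CENPF, BUB1, BUB1B, TTK, AURKA, AURKB, BIRC5, CDCA8, TPX2, DLGAP5, NUSAP1, HMMR, ANLN, TOP2A, CDC20 and PTTG1. The median log2 fold change was -0.07 in the core and -0.54 in the effectors, and -0.56 in the 11 other kinetochore and checkpoint genes. At an adjusted p under 0.001, 3 of 14 core genes and 8 of 17 effectors were lower, and at 0.05 these counts were 5 and 15, against 8.14% and 23.7% of all genes. Both treated libraries were below both DMSO libraries for 7 core genes and for all 17 effectors, against 36.9% of all genes. The core ranged from -1.13 to 0.40, while the effectors ranged from -1.10 to -0.12. The lowest values of the classes were close, and the 4 genes above 0 were all in the core. No test between the classes was made, because their genes were chosen with results of these data known.

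The effectors and the core were also set side by side in each library, without a test. For each library, the median deviation from the mean of the DMSO libraries was taken on the log2(CPM + 0.5) scale. In the effectors it was -0.39 in SGSS05-NS replicate 1 and -0.61 in replicate 2, and in the core -0.12 and -0.13. The effector BIRC5 was nearly level in the SGSS05-NS libraries, with 204.51 CPM in replicate 1 and 204.46 CPM in replicate 2. Counting it, all 17 effectors were lower in SGSS05-NS replicate 2 than in replicate 1, compared with 5 of the 14 core genes. The DMSO libraries also differed in this way, since 16 of 17 effectors and 12 of 14 core genes were lower in DMSO replicate 2 than in replicate 1, with a median absolute gap over the 42 genes of 0.09 in DMSO and 0.16 in SGSS05-NS libraries. The largest gaps were in CENPE (-0.74 on the log2 scale), CENPF (-0.60) and AURKA (-0.51), while MAD1L1 went the other way (0.57). Without SGSS05-NS replicate 2 the difference between the class medians was 0.28 instead of 0.48. MKI67, the gene of the proliferation antigen Ki-67, also varied between libraries, with 379 and 542 CPM in DMSO and 440 and 257 CPM in SGSS05-NS libraries (log2 fold change -0.40, SE 0.21, adjusted p = 0.13). The part of this variation in the class medians was not tested.

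**Figure D3:**
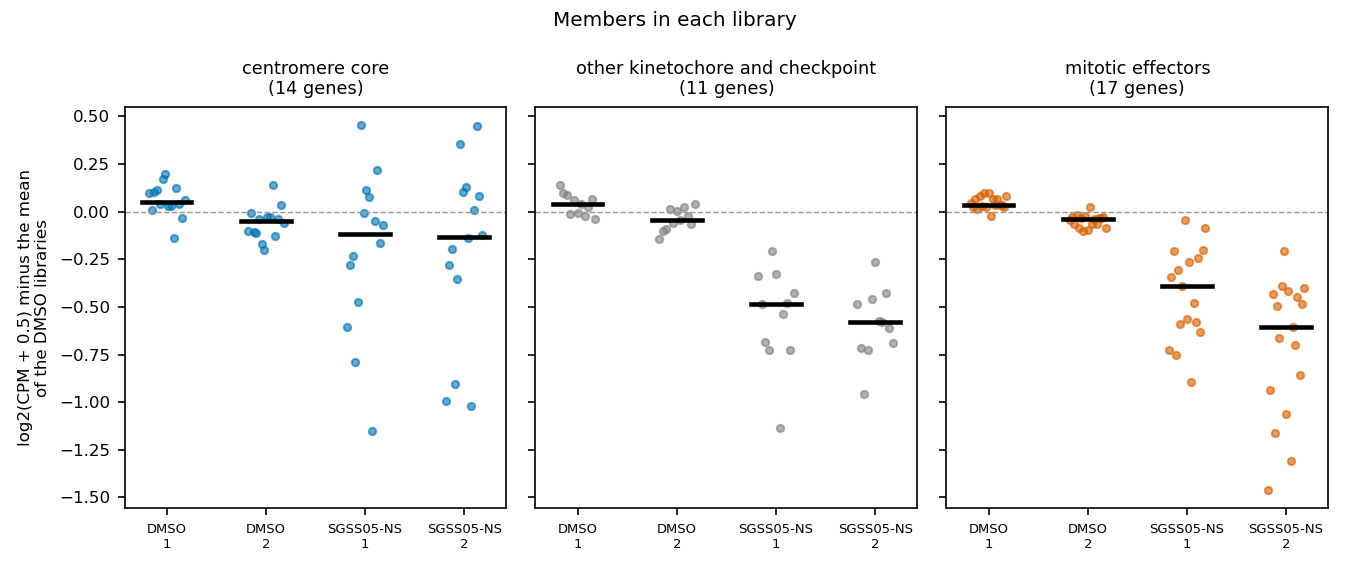
Deviation of every gene from its mean in the DMSO libraries on the log2(CPM + 0.5) scale (y axis), for each of the 4 libraries (x axis) and in 3 classes, with black bars for the class medians. The medians of the core lie at -0.12 and -0.13 in the treated libraries, and those of the effectors at -0.39 and -0.61.

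The classes also differed in level. Scaled by the length of all annotated exons, the median DMSO level was 7.14 CPM per kb in the core and 32.0 CPM per kb in the effectors. TOP2A was the most abundant with 136 ± 4.61 CPM per kb (SD, n = 2). BIRC5 (70.5 ± 6.84), CENPF (70.1 ± 1.79) and TPX2 (68.4 ± 1.53) followed and did not differ from each other beyond their spread. CENPP (2.45 ± 0.343) and CENPT (3.76 ± 0.146) had the lowest levels. Across the 42 genes, level and log2 fold change had a Spearman correlation of -0.04, given as a description of genes that share the same 4 libraries.

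Gene span is given beside the change because long genes were lower in these libraries. Across the 42 genes, the Spearman correlation between the span of the gene and its log2 fold change was -0.51, and it was -0.22 across all 16042 genes with a span, a description without a test. Only CENPP (295 kb) and MAD1L1 (417 kb) were longer than 100 kb. Of all 2833 genes tested that were longer than 100 kb, 27.8% were lower at an adjusted p under 0.001 and the median log2 fold change was -0.42, which is the background for these 2 genes. Among the 40 shorter genes the correlation was -0.44, and it was -0.71 in the 14 core genes and -0.31 in the 17 effectors. With the long genes left out, the difference between the medians of core and effectors was 0.51.

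**Figure D4:**
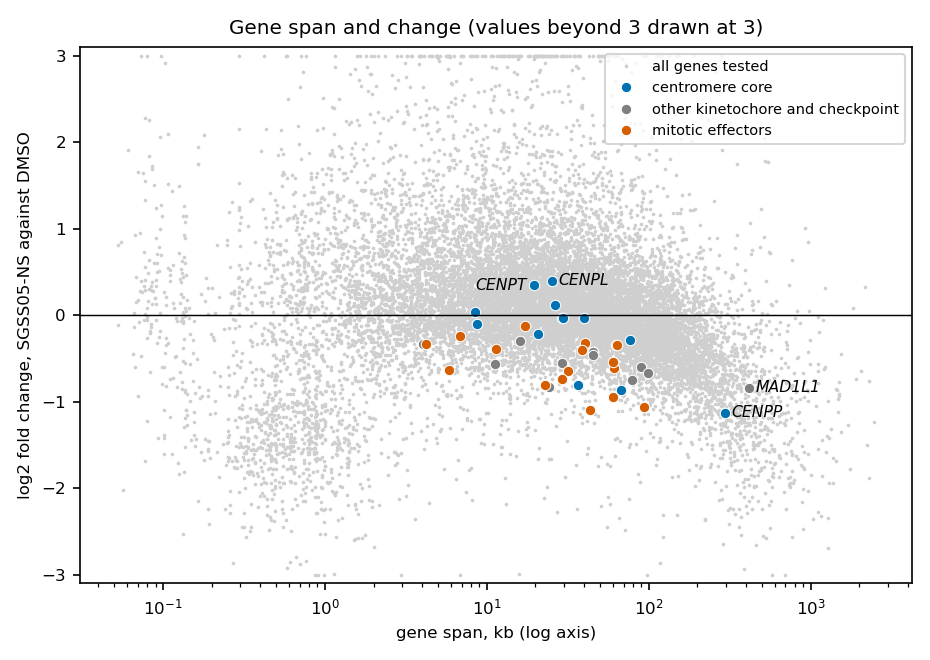
Log2 fold change (y axis) against gene span in kb (x axis, log scale) for all genes with a span (gray) and for the 42 genes by class. CENPP and MAD1L1 are the only genes of the set beyond 100 kb, and CENPL and CENPT lie above 0 at 25.3 and 19.7 kb.

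The CHR letters were present in the windows of 19 of the 33 genes (57.6%), against 18.2% of 27305 genes in the promoter table. By class they were in 4 of 11 core genes (36.4%), 6 of 9 other kinetochore and checkpoint genes (66.7%) and 9 of 13 effectors (69.2%). Within 60 bases of the start, a limit chosen after the data were seen, CHR letters began in 16 of the 33 genes and in 6.26% of all genes. CCAAT letters were in 24 of the 33 genes (72.7%), against 39.7% of all genes, and E2F letters in 2 (CENPA and NUSAP1), against 2.75%. Both CHR and CCAAT were present in 14 of 33, against 8.37% of all genes. The median log2 fold change was -0.55 for the 19 genes with CHR and -0.44 for the 14 without. Within the core it was -0.16 with CHR (CENPA, CENPC, CENPN and CENPO) and -0.10 without, and in the effectors -0.61 and -0.48. The order was the opposite in the other kinetochore and checkpoint genes, with -0.56 for the 6 with CHR and -0.83 for the 3 without. With the limit of 60 bases, the core medians were -0.03 with CHR and -0.19 without, and the effector medians -0.61 and -0.49. For CCAAT letters, the medians over the 33 genes were -0.50 with them and -0.60 without. These CCAAT medians were -0.19 and -0.03 in the core, and -0.58 and -0.95 in the effectors. CENPI, CENPP, CENPE, SPC24, MAD1L1 and AURKB were lower at an adjusted p under 0.001 without a CHR match in the window, and CENPE held the variant. A match is a description of the letters and not of a bound site.

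**Figure D5:**
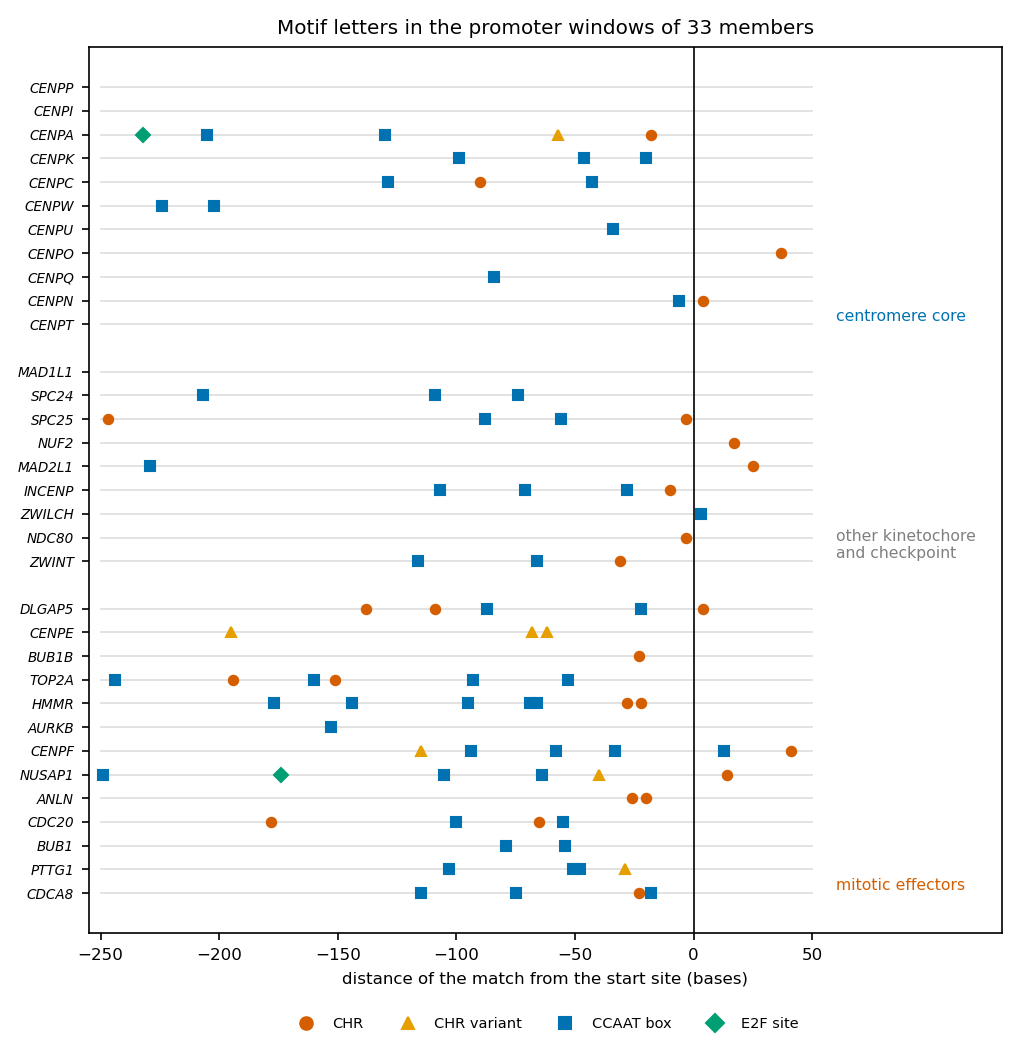
Position of the matches in the promoter windows of 33 genes, as distance in bases from the start site (x axis), by class and ordered by log2 fold change within a class. Where RefSeq gives several windows, only 1 is drawn, so a match in another window of PTTG1, CENPP, ZWINT or AURKB can be missing. CHR matches lie near the start in 16 of the genes.

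Lists of other genes of the same machinery are read against the 8.14% of all genes lower at 0.001 and the 23.7% lower at 0.05. Of 22 other kinetochore and centromere genes, 2 were lower at an adjusted p under 0.001 and 10 at 0.05, with a median log2 fold change of -0.29, so that the share at 0.001 was close to that of all genes. SKA2, a subunit of the SKA complex that couples kinetochores to microtubules, had 172 and 178 CPM with DMSO and 96.9 and 92.3 CPM with SGSS05-NS (log2 fold change -0.89, adjusted p = 1.6e-05), and NSL1, a subunit of the MIS12 complex, had a log2 fold change of -0.57 (adjusted p = 0.00046). HJURP, the CENP-A chaperone, was at 0.00 (adjusted p = 0.98). Of 22 other checkpoint and anaphase genes, 3 were lower at 0.001: ANAPC1 (-0.79), TRIP13 (-0.56) and FBXO5 (-0.52). At 0.05, 10 of them were lower and 2 higher, against 22.6% of all genes higher. The 2 were HASPIN (0.58) and MAD2L1BP (0.43), named after their values were seen. Of 16 other spindle genes, 3 were lower at 0.001, CLASP1 (-1.04), CIT (-0.72) and ECT2 (-0.71), and 11 at 0.05. ANAPC1 (273 kb), CLASP1 (312 kb) and CIT (192 kb) are long genes.

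Among 12 genes of DREAM, its MuvB core and their activators, 3 were lower at 0.001, against 8.14% of all genes: TFDP2 (log2 fold change -0.78), LIN52 (-0.68) and TFDP1 (-0.53). TFDP2 (205 kb) and LIN52 (117 kb) are long genes. At 0.05, 6 were lower, against 23.7% of all genes, and 1 was higher, against 22.6%. The higher gene was LIN37 (1.12), on 24 and 25 counts with DMSO against 40 and 61 with SGSS05-NS. FOXM1 and MYBL2, which activate mitotic genes with MuvB and were named after their values were seen, did not pass (-0.16 and -0.09). CDKN1A, which encodes p21, rose from 19.6 and 15.3 CPM to 520 and 374 CPM (log2 fold change 4.68, adjusted p = 5.2e-09), and KMT5A, the gene of SETD8, from 54.6 and 56.8 CPM to 82.8 and 82.9 CPM (0.57, adjusted p = 0.00037). Of 19 G1/S genes, 3 were lower at 0.001 (RRM2, MCM3 and MCM6, from -0.66 to -0.54) and 1, the licensing factor gene CDT1, was higher (0.61), against 8.14% and 6.37% of all genes, with a median of -0.11.

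Markers of the cells were checked in the same libraries. The summed level of 10 adrenergic NB markers was between 4168 and 4498 CPM with DMSO and between 2575 and 2618 CPM with SGSS05-NS. Of 9 tested, 6 were lower at 0.001, among them CHGA (log2 fold change -1.37) and PHOX2A (-0.65). TH had at most 2 fragments per library, so this adrenergic marker was nearly absent. Mesenchymal markers summed to between 226 and 255 CPM with DMSO and 168 and 170 CPM with SGSS05-NS, with PRRX1 and DCN at 0. TWIST1, the 1 of 8 tested that was lower at 0.001, made up most of this sum, with 152 and 168 CPM in DMSO and 99.8 and 87.0 CPM in SGSS05-NS libraries. Blood and epithelial markers summed to between 2.23 and 5.10 CPM in the 4 libraries, and none of 3 tested passed 0.001 (3 had an adjusted p under 0.05), with CD3E, KRT8 and HBB at 0. The part of these values in the results for mitotic genes was not tested.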

How the data were processed

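Per the labels and the methods, the authors ran Trimmomatic 0.30 on the read pairs, then STAR 2.4.2a against hg19 (GRCh37) and GENCODE version 19, and deposited STAR's raw counts of fragments per gene, unnormalized and unpooled, in 3 columns by strand. The labels name a TruSeq RNA kit and the methods a stranded total RNA kit. The reverse-strand counts were used, since the other strand held between 4.64% and 5.05%. The 4 summary rows were left out. Multimapping fragments are not in these counts.

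Symbols, positions and exon lengths came from GENCODE release 44 on GRCh37 (55538 of 57820 identifiers matched). With edgeR 4.0.16 in R 4.3.3, genes were filtered with filterByExpr (16468 left), scaled by TMM and compared with the quasi-likelihood test of treatment alone and Benjamini-Hochberg adjustment over all genes tested. The standard error is the log2 fold change over the root of F. The study used the likelihood ratio test, run here as an alternative. The functions were tested on simulated data. Counts of members ranged from 221 to 22317 per library, and standard errors from 0.09 to 0.18.

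The 42 members, their roles and classes, the other lists and the motifs were chosen with earlier results of these data known. All members are named; values per library are given for the 2 smallest and the largest p of each role, the 3 largest falls and every gene above 0, and other lists are represented by their 3 smallest p-values, of which some are not reported here. CENPA, CENPF, MAD1L1 and HJURP were given more values after these were seen. Alternatives were DESeq2 1.42.0, limma voom (limma 3.58.1), other scalings, filters, thresholds and strands, the replicate number as a block, and each library left out. A lone library is then assumed to vary like the pair.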

Additional observations from a re-analysis of the deposited data

How the results depend on the processing

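The 17 calls of lower genes at an adjusted p under 0.001 became 8 when libraries were scaled by their size only, and between 15 and 23 under the other tests, scalings, filters and strand settings. CENPI, SPC24, BUB1B, KNTC1, AURKB, DLGAP5 and TOP2A passed in the main test and in each of the 13 alternatives, while the other 10 lost the call at least once, 9 of them with library size only. With thresholds of 0.05 and 0.01 in place of 0.001, 31 and 23 members were lower and 2 and 0 higher, beside 3903 and 2616 lower and 3728 and 2321 higher genes in all. The likelihood ratio test gave 2267 lower and 2022 higher genes, and no filter on low counts gave 2570 and 2034. The number of members higher at 0.05 went from 2 to 0 with DESeq2, 1 without a filter and 1 without regard to strand. With each library left out it was between 0 and 2. The left-out fits gave medians from -0.51 to -0.37 for the members, from -0.18 to -0.063 for the core and from -0.62 to -0.39 for the effectors, and a difference of the class medians from 0.28 to 0.47. The signs of 5 uncalled core genes reversed. CENPM was at -0.0038 without regard to strand, -0.17 without DMSO replicate 2 and -0.022 without SGSS05-NS replicate 2. CENPN was at -0.011 without regard to strand, CENPO at 0.0065 and CENPQ at 0.0037 with library size only, CENPO at 0.077 without SGSS05-NS replicate 2, CENPQ at 0.10 without DMSO replicate 1 and CENPU at 0.074 without SGSS05-NS replicate 1. With single libraries left out, CENPM ranged from -0.17 to 0.25, CENPO from -0.15 to 0.077 and CENPU from -0.16 to 0.074. The cause of these changes was not tested. INCENP, CENPF, ZWILCH, BIRC5, NDC80 and TTK passed 0.001 in at least 1 alternative and not in the main test. Of the 31 members lower at 0.05, 10 missed it in at least 1 fit with a library left out. With the replicate number as a block, 20 members were lower at 0.001, and 2007 genes were lower and 1759 higher in all. Same-numbered libraries had a correlation of 0.05 between their deviations over 16468 genes. Each group gives only 1 difference between its libraries, so this value cannot decide whether they were paired.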
